A study of Mus musculus with 41 samples.

Results

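Melanomas collected 90 or 121 days after doxycycline was withdrawn were compared with melanomas collected 63 or 77 days after withdrawal. The comparison holds 8 of the 41 tumours of the study. They are the tumours of those days whose titles carry a 4-digit number that starts with 3. The later group has 3 tumours, 1 of day 90 (replicate 1) and 2 of day 121 (replicates 2 and 3). The earlier group has 5 tumours, 3 of day 63 (replicates 1 to 3) and 2 of day 77 (replicates 4 and 5). Every tumour came from the iBIP strain and all 8 were off doxycycline, so neither group holds a tumour on the drug. Per the labels, skin was trimmed off each tumour and a small piece of the tumour was kept for RNA. The study followed such melanomas from day 0 to day 163 off the drug on Affymetrix mouse arrays. The labels give neither age nor sex and do not say that the tumours came from separate mice, so p-values measure the spread between these samples, which may be partly technical. They also do not say whether a tumour was a remnant or had regrown.

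In iBIP mice a doxycycline-inducible mutant BRAF transgene drives melanomas, which form in the skin while the drug is given. BRAF is a kinase at the top of the MEK and ERK cascade, and genes such as Dusp6, Spry4 and Etv4 are transcribed in response to ERK. Withdrawal of doxycycline switches the transgene off. A tumour piece is a mixture of melanoma cells, immune cells, vessels, nerve and whatever skin or muscle it adjoins, and in such bulk RNA fewer cells of a type and less RNA per cell cannot be told apart.

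Values are log2 intensities, computed as log2 of the deposited intensity plus 16, and a difference of 1 is a 2-fold change on that scale. A gene is the probe set that names it alone and has the highest mean, and 13655 of 18194 genes were bright enough in these 8 arrays to be tested. RNA quality was read from the array's Gapdh control probe sets, since the 5′ one loses signal relative to the 3′ one when RNA is degraded. This 3′ minus 5′ gap was 2.42, 3.19 and 0.27 in the later tumours (replicates 1 to 3), and 2.19, 2.74, 3.95, 4.04 and 0.60 in the earlier tumours (replicates 1 to 5). It averaged 1.96 ± 1.51 (SD, n = 3) in the later and 2.70 ± 1.42 (n = 5) in the earlier group, a difference of -0.74 ± 1.08 (SE; two-sided exact permutation p = 0.5, where 56 splits allow no p below 0.0179). Each group holds 1 tumour with a gap below 1, day 121 replicate 3 and day 77 replicate 5, and these stand apart from the other 6, whose gaps exceed 2. Without day 121 replicate 3 the difference in the gap turns to 0.10. Tumours of days 0 to 6 had gaps from -0.22 to 1.04, and those of day 9 from 0.45 to 2.34, so 5 of the 8 long-withdrawn tumours lie above all of these.

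**Figure D1:**
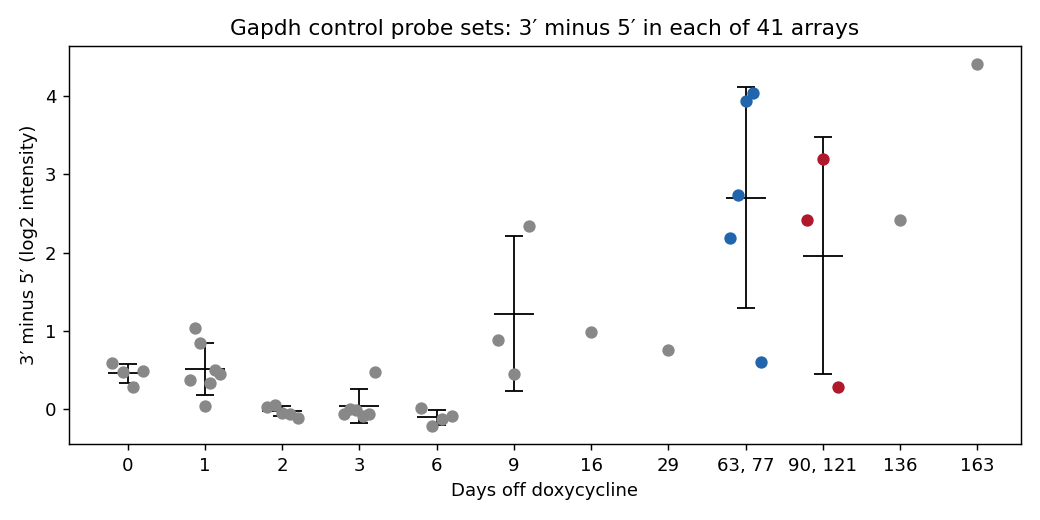
Gapdh 3′ minus 5′ gap (log2 intensity, vertical axis) in each of the 41 arrays by days off doxycycline; red, days 90 and 121; blue, days 63 and 77; grey, other days; black bars, mean and SD of groups of 3 or more. The red and blue tumours overlap, and each colour has 1 tumour below 1 while its others exceed 2.

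No gene passed the test between the later and the earlier tumours. In limma, 0 of 13655 genes (0%) reached an adjusted p below 0.05, and the smallest adjusted p was 0.953. At an unadjusted p below 0.05 there were 369 genes (2.7%), of which 151 (1.11%) had the higher and 218 (1.6%) the lower mean in the later tumours. That balance moved with the setting: arrays centred on their medians gave 87 higher and 275 lower, averaging all probe sets per gene 178 and 181, and leaving out day 121 replicate 3 turned it to 387 and 193. The groups did not overlap in 263 genes (1.93%), all 3 later values lying above all 5 earlier values in 110 (0.806%) and below them in 153 (1.12%). A fit with the Gapdh gap as a covariate also called 0 genes (0%), with 544 (3.98%) at an unadjusted p below 0.05.

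Whole profiles did not separate the groups either. Across genes, the correlation between a later and an earlier tumour ran from 0.884 to 0.989 over 15 pairs (median 0.935). Among the earlier tumours it ran from 0.857 to 0.976 over 10 pairs (median 0.953), and among the later tumours from 0.937 to 0.939 over 3 pairs. For 4 of the 8 tumours the most similar profile belonged to the other group. Day 121 replicate 2 paired with day 63 replicate 3 at 0.989, and day 121 replicate 3 paired with day 77 replicate 5 at 0.971, and these last are the pair with narrow Gapdh gaps. Differences of 2-fold or more between the group means were found in 27 genes (0.198%) with the higher mean in the later tumours and in 177 (1.3%) with the lower mean.

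Among the genes whose groups did not overlap, 7 were at least 2-fold higher (0.0513% of genes tested) and 5 at least 2-fold lower (0.0366%) in the later tumours. Each of the 12 had an adjusted p of 0.953, so none is a called change, and the choice of members fixed their direction. Gfra3, which encodes the artemin co-receptor of the GDNF receptor family, had 11.26, 10.36 and 10.60 in the later tumours, against 9.06, 9.15, 9.39, 8.86 and 9.50 in the earlier ones. The lowest later tumour lay above the highest earlier tumour by more than the whole range of the earlier group. The group difference was 1.55 ± 0.23 (SE). The tumours of days 136 and 163, which are in neither group, had 10.51 and 10.24 for Gfra3, inside or just below the later range, and the means of days 0 to 9 ran from 8.15 to 9.69.

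Per1, a negative regulator of the circadian clock that glucocorticoids also induce, had 9.82, 8.44 and 8.49 in the later tumours, against 7.76, 7.30, 7.57, 7.69 and 8.25 in the earlier ones (difference 1.20 ± 0.34). Ddit4, an mTORC1 inhibitor gene induced by glucocorticoids and hypoxia, had 11.69, 10.07 and 10.35 against 9.63, 9.85, 9.64, 9.35 and 9.51 (difference 1.11 ± 0.33). Zbtb16, a zinc finger transcription factor gene also induced by glucocorticoids, had 8.10, 6.96 and 6.36 against 5.60, 6.26, 5.93, 6.29 and 5.81 (difference 1.16 ± 0.36). In these 3 genes the day 90 tumour was the highest of the 8, and the day 121 tumours lay close above the earlier group. The means of days 0 to 9 ran from 8.09 to 8.48 for Per1 and from 9.93 to 10.63 for Ddit4, about the level of the day 121 tumours. For Zbtb16 they ran from 5.385 to 6.175, below the day 121 tumours. The secreted Wnt antagonist gene Sfrp5 also had its highest value in the day 90 tumour, with 8.38 there, 6.78 and 7.21 in the day 121 tumours, and 6.13, 6.51, 6.34, 6.70 and 6.26 in the earlier ones (difference 1.07 ± 0.33). At day 163 Sfrp5 was 6.28, inside the earlier range, and at day 136 it was 8.83. Per1 (10.01 and 8.84 at days 136 and 163) and Zbtb16 (8.22 and 6.63) were above their earlier ranges on both days. Ddit4 was 11.06 and 9.85.

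Aldh1a1, which encodes a retinaldehyde dehydrogenase, had 9.44, 9.71 and 10.15 in the later tumours, against 6.91, 8.38, 9.14, 8.83 and 7.93 in the earlier ones (difference 1.53 ± 0.46). Aldh1a7, a close paralog of Aldh1a1, had 6.62, 6.95 and 8.56 against 5.43, 5.04, 6.42, 6.61 and 6.08 (difference 1.46 ± 0.51). The margin between the groups is narrow for Aldh1a7, and the probe sets of such near-identical genes may detect both transcripts. Aldh1a1 was low at first, with means from 5.05 at day 0 to 6.24 at day 3 and 6.12 at day 9, below all 8 long-withdrawn tumours. At day 163 it was 7.61, inside the earlier range, and at day 136 it was 10.36.

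Of the 5 genes in the other direction, Kera, which encodes the matrix proteoglycan keratocan, had 5.17, 5.82 and 5.23 in the later tumours, against 6.52, 6.62, 6.41, 6.79 and 6.25 in the earlier ones (difference -1.11 ± 0.19). Egr1, an immediate early transcription factor gene downstream of ERK, had 9.40, 9.50 and 8.99 against 9.85, 10.29, 10.49, 11.39 and 10.25 (difference -1.16 ± 0.32). Both separations are smaller than the range of the earlier group. At days 136 and 163 Egr1 was 10.77 and 10.74, inside the earlier range. Kera was 4.99 at day 136 and 6.49 at day 163, the latter inside its earlier range. The other 3 encode muscle proteins: nebulin, Neb, with a difference of -2.43 ± 0.59, synaptopodin 2, Synpo2, with -1.20 ± 0.42, and the Z-disc protein gene Ldb3 with -1.05 ± 0.54. For Synpo2 the groups all but touch, with a highest later value of 6.3515 and a lowest earlier value of 6.3565. For Ldb3 the later values were 5.49, 5.26 and 5.23 and 3 of the 5 earlier values were between 5.57 and 5.69, so its mean difference came from day 63 replicate 2 (7.01) and day 77 replicate 4 (7.94). Later values of Kera (5.17 and 5.23), Neb (4.82 and 5.36) and Ldb3 (5.26 and 5.23) lay below the brightness limit for testing. These genes passed the filter only with the earlier tumours, where they were high, so their separation is not support for a difference. At day 163 Neb, Synpo2 and Ldb3 were 9.36, 8.91 and 8.24, above their earlier ranges. At day 136 Neb and Synpo2 were 6.42 and 6.74, inside them, and Ldb3 was 5.34, inside its later range. Adding the tumours of days 136 and 163 to the later side left the groups without overlap in 64 of the 110 genes on the higher side and 63 of the 153 on the lower side.

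**Figure D2:**
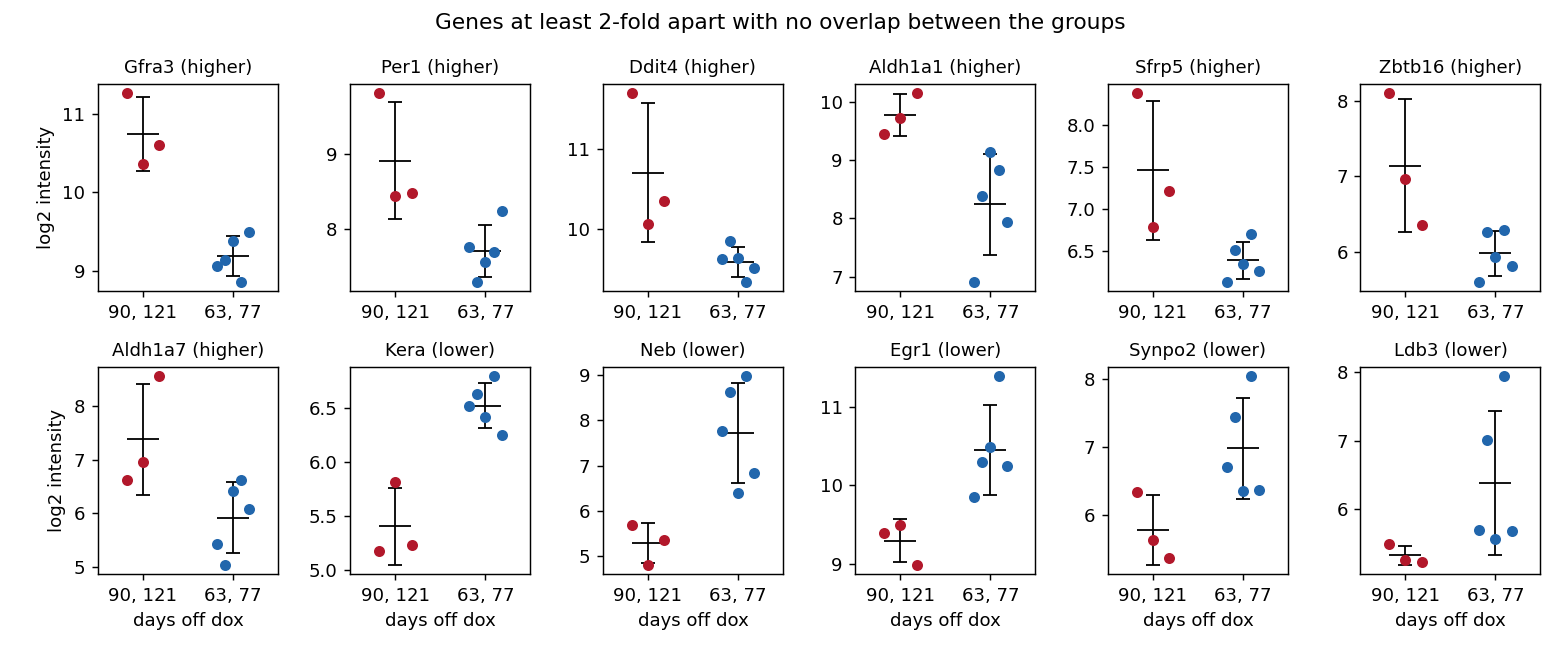
Log2 intensity (vertical axes, scaled per gene) of the 12 genes at least 2-fold apart without overlap; red points, the 3 tumours of days 90 and 121; blue points, the 5 tumours of days 63 and 77; black, mean and SD. The groups are separate in each panel by construction, and in Per1, Ddit4, Sfrp5 and Zbtb16 the day 90 tumour, leftmost of the red points, sits above the rest.

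The genes that read out ERK activity lay at like levels in the groups. Of 26 tested members of a list of MAPK output genes, 0 were called, 8 had the higher mean in the later tumours, and the median difference was -0.09, against -0.02 over all genes tested. The mean over the list was 8.04, 7.73 and 7.99 in the later tumours, against 8.001, 8.03, 7.89, 8.11 and 8.05 in the earlier ones, while the day 0 tumours, still on the drug, ran from 9.14 to 9.62. Dusp6, an ERK phosphatase gene, differed by -0.05 ± 0.16 (SE), Spry4, a feedback inhibitor gene, by -0.12 ± 0.13, and the ETS factor gene Etv4 by 0.04 ± 0.13. Ccnd1, which encodes cyclin D1, was at 9.55, 10.22 and 10.52 in the later tumours, against 10.35, 10.51, 10.14, 10.48 and 10.48 in the earlier ones. Egr1 was the single member of 26 whose groups did not overlap, where 1.93% of all genes did not. Hmga2, a chromatin protein gene of the same list, ran from 6.70 to 10.13 in the later tumours and from 6.95 to 8.46 in the earlier ones, with the highest value of each group in its tumour with the narrow Gapdh gap. The endogenous Braf gene differed by 0.02 ± 0.12. Cdkn2a, a tumour suppressor gene often lost in melanoma, was too dim to be tested.

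Tumour lineage markers were present in all 8 tumours, with the exception of the pigment genes, which were dim. Sox10, the neural crest transcription factor gene of melanocytes and Schwann cells, had 10.49, 10.07 and 10.04 in the later tumours, against 9.87, 10.11, 10.01, 9.22 and 9.71 in the earlier ones (difference 0.41 ± 0.21, adjusted p = 0.953 in limma). Mitf, the master regulator of melanocytes, spanned 8.10 to 9.40 in the later and 7.97 to 9.82 in the earlier tumours. The melanosome enzyme gene Dct had 6.01, 7.34 and 6.05 in the later tumours, against 7.36, 6.97, 7.51, 8.64 and 5.61 in the earlier ones. Tyrp1, another melanosome enzyme gene, had 6.22, 6.56 and 5.09 against 6.62, 7.15, 7.21, 8.32 and 4.97. In Dct and Tyrp1, day 77 replicate 4 was the highest and the tumours with narrow gaps were among the lowest. Over the 14 tested genes of the melanocyte list, 0 were called, 10 had the lower mean in the later tumours and the median difference was -0.27.

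Genes of Schwann cells and myelin tended to the higher mean in the later tumours without a call. Of 20 tested members, 15 had the higher mean in the later tumours, beside 45.8% of all genes, and the median difference was 0.37. At an unadjusted p below 0.05 there were 3, all with the higher mean (1.11% of all genes), and the groups did not overlap in 1, Cnp (0.806% of all genes on that side). Cnp, which encodes the myelin enzyme CNPase, had 11.91, 12.24 and 12.32 in the later tumours, against 11.43, 11.81, 11.85, 11.38 and 11.28 in the earlier ones (difference 0.61 ± 0.18). Mal, a myelin proteolipid gene, had 11.58, 11.52 and 11.20 against 10.56, 10.57, 11.33, 10.28 and 10.62 (difference 0.76 ± 0.23), and day 63 replicate 3 lay within the later range. Scn7a, a sodium channel gene of non-myelinating Schwann cells, differed by 0.84 ± 0.36. The myelin basic protein gene Mbp ran from 11.01 to 11.89 in the later tumours, and in the earlier ones day 63 replicate 1 (8.83) and day 77 replicate 5 (9.02) lay far below the other 3 (11.18 to 11.30). The list mean was 9.62, 9.65 and 9.38 in the later tumours, against 9.17, 9.37, 9.50, 9.10 and 9.08 in the earlier ones, while day 0 tumours ran from 7.42 to 8.32. Neuron and axon genes, a separate list of which 6 could be tested, had a median difference of -0.15.

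Cell cycle genes had the lower mean in the later tumours, mainly through the day 90 tumour. Of 23 tested mitosis genes 22 had the lower mean and 0 were called, with a median difference of -0.36. Likewise 22 of 23 DNA replication genes had the lower mean, with a median of -0.18 and 0 called. The mitosis list mean was 6.497 in the day 90 tumour and 7.15 and 8.01 in the day 121 tumours, against 8.01, 7.16, 7.09, 7.96 and 7.63 in the earlier ones. The day 90 tumour was the lowest of the 8 in 19 of the 23 genes. Day 121 replicate 3 and day 63 replicate 1 were each the highest in 8 of them, and day 77 replicate 4 in 7. Mki67, which marks proliferating cells, had 7.81, 9.50 and 9.93 in the later tumours, against 10.28, 9.21, 9.49, 10.16 and 9.47 in the earlier ones. The day 136 tumour, with a list mean of 6.07, was lower still, whereas the day 163 tumour had 7.33.

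Immune lists differed between single tumours more than between the groups. Interferon response genes had the higher mean in the later tumours in 21 of 27 members (median difference 0.15, 0 called), and the groups did not overlap in 1 of the 27 (0.806% of all genes on that side), the interferon-inducible GTPase gene Irgm1, with 8.79, 9.16 and 8.68 in the later tumours against 8.13, 8.61, 8.60, 8.05 and 8.39 in the earlier ones. The list mean was 7.81 in the day 90 tumour and 8.90 and 8.59 in the day 121 tumours, against 8.03, 8.50, 8.55, 8.39 and 8.15 in the earlier ones. Those values are below every tumour of days 1 to 9, which ran from 8.89 to 10.86, apart from day 121 replicate 2, which at 8.90 just reached the lowest of them. Complement genes had the higher mean in 9 of 11 members (median 0.30), and C1qb, a subunit gene of complement C1q made by macrophages, had 10.32, 9.58 and 10.51 in the later tumours, against 9.01, 10.11, 9.21, 9.19 and 10.08 in the earlier ones. Apoe, which is abundant in macrophages and in neural crest tumours, differed by 0.72 ± 0.25 (SE), with 13.58, 12.86 and 13.06 in the later tumours, against 12.47, 12.99, 12.48, 11.90 and 12.39 in the earlier ones. Macrophage genes as a list were level, with a median of 0.03 over 25 members. T and NK cell genes had the lower mean in 18 of 21 members (median -0.13), B and plasma cell genes in 8 of 10 (median -0.15) and mast cell genes in 9 of 10 (median -0.51), each with 0 called.

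MHC class II genes had the widest range of list means among the immune lists, although single neutrophil genes varied more (median SD over the 8 tumours 1.17, against 0.945 for MHC class II). Their list mean was 8.71 in the day 90 tumour and 10.83 and 10.67 in the day 121 tumours, against 9.95, 11.21, 10.56, 10.31 and 9.10 in the earlier ones. H2-Aa, an MHC class II alpha chain gene, had 9.16, 12.82 and 12.45 in the later tumours, against 11.67, 12.86, 12.57, 12.07 and 10.32 in the earlier ones. In both, the day 90 tumour was lowest and day 77 replicate 5 the next. Cxcl9, an interferon-gamma induced chemokine gene for T cells, ran from 5.51 (day 90) to 9.46 (day 121 replicate 2) in the later tumours and from 5.79 to 8.85 in the earlier ones, and its group difference of -0.09 ± 0.97 (SE) is far smaller than its error.

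Skeletal muscle genes had the largest list difference, with the lower mean in the later tumours in all 19 members tested. The median difference was -1.84, 7 of the 19 reached an unadjusted p below 0.05 on the lower side, where 1.6% of all genes did, and 0 were called. In the day 121 tumours Neb (4.82 and 5.36) and Myh1 (4.90 and 4.54) lay below the brightness limit for testing. Such genes passed the filter only with the earlier tumours, where they were high, so the counts of this list are not support for a difference. The list mean was 6.36, 5.68 and 5.47 in the later tumours, against 7.58, 8.93, 6.67, 9.34 and 5.83 in the earlier ones. The groups overlap through day 77 replicate 5, which was as low as the later tumours. Neb, the gene of the thin filament ruler nebulin, was the single member without overlap (1.12% of all genes on the lower side). It had 5.70, 4.82 and 5.36 in the later tumours, against 7.77, 8.62, 6.39, 8.98 and 6.85 in the earlier ones. Acta1, skeletal muscle actin, had 7.61, 5.59 and 5.46 in the later tumours, against 9.04, 10.78, 7.04, 11.05 and 5.98 in the earlier ones (difference -2.56 ± 1.21). The fast troponin C gene Tnnc2 differed by -3.44 ± 1.26 and the fast myosin heavy chain gene Myh1 by -3.26 ± 1.45. Day 77 replicate 4 held the highest value of 15 of the 19 genes and day 63 replicate 2 of the other 4. The tumours of days 136 and 163 had list means of 7.28 and 8.92, above the later group, and day 0 tumours ran from 5.57 to 5.77. The adipocyte and muscle enzyme gene Car3 followed the same tumours, with 7.03, 5.38 and 5.39 in the later ones and 8.96, 11.17, 8.33, 11.76 and 5.198 in the earlier ones. The Gapdh gap of the low tumours was 0.27 to 3.19 in the later group and 0.60 in day 77 replicate 5. With the gap as a covariate the difference of Neb was -2.35 and none of the list was called.

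Among the 8 tumours the spread was widest in epidermal and muscle genes. The 15 genes with the largest SD over the 8 included the cornified envelope genes Rptn, Hrnr, Lce1f and Lce3f, the keratin gene Krt1, the epidermal protease inhibitor genes Serpinb12 and Csta1, the desmosome gene Perp, the muscle genes Myh1 and Tnnc2, Car3, the beta-defensin gene Defb3, Xist, Fam25c and 2610528A11Rik. Of the 15, day 77 replicate 4 was the highest tumour in 11 and day 77 replicate 5 the lowest in 11. Repetin, Rptn, had 5.97, 11.00 and 7.57 in the later tumours, against 12.02, 10.02, 11.57, 12.35 and 4.71 in the earlier ones. Krt1, a keratin of differentiating epidermis, had 8.71, 12.23 and 9.60 against 12.69, 12.11, 12.18, 13.29 and 5.45. Both genes were low in the same 3 tumours, the day 90 tumour, day 121 replicate 3 and day 77 replicate 5, and high in the other 5. The median SD of a gene was 0.263 in the later and 0.213 in the earlier group, where days 0 to 9 ran from 0.181 to 0.236. An SD above 2 was found for 22 genes in the later and 94 in the earlier group, against 3 to 50 in the early days. These SDs and counts cover only genes bright enough in the 8 long-withdrawn tumours, so genes bright only on days 0 to 9 are left out. The groups compared held 3 to 7 tumours each.

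The promoters of 3 of these genes are shown as examples of the widest spread: Rptn and Fam25c, which were high in the same 5 tumours, and Myh1, whose tumours differ in part, with day 121 replicate 2 high in the other 2 genes and low in Myh1. RefSeq entries (build GRCm38.p6) were matched for 11 of the 15 genes, which have 12 entries, each running from 250 bases before the annotated start to 50 after it. The letters TATAAA, or TTTATA on the other strand, were found in 8 of the 12 entries (66.7%) and in 13.6% of all 32851 promoters. Among the 12 genes whose groups lay apart, 8 matched with 11 entries and 2 of these (18.2%) held the letters. In the sequences the match on the gene's own strand is in capitals, and it begins 31 bases before the start in Rptn, 29 in Fam25c and 32 in Myh1. A match describes letters and is not evidence of a binding site.
Rptn promoter, chr3:93393449-93393748, plus strand: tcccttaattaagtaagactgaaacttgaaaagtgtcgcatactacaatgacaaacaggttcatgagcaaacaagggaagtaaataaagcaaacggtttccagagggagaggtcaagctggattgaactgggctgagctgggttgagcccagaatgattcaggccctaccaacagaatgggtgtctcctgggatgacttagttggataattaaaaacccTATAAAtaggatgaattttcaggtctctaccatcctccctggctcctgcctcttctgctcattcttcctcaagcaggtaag
Fam25c promoter, chr14:34355344-34355643, minus strand: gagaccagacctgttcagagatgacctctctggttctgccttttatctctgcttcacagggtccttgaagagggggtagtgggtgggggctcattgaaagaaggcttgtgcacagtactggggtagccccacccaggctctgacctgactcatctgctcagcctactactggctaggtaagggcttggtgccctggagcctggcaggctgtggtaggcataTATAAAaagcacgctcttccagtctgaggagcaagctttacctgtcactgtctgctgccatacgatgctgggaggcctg
Myh1 promoter, chr11:67199852-67200151, plus strand: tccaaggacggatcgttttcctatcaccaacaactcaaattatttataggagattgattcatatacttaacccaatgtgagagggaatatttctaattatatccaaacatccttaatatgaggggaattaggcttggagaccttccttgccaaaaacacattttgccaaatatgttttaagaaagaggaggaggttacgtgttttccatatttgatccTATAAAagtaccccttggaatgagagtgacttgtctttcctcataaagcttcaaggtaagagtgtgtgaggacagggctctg

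Keratinocyte and hair follicle genes spanned the widest range of any list with 3 or more genes tested. The list mean was 8.04, 9.41 and 7.56 in the later tumours, against 10.09, 9.38, 9.78, 10.54 and 5.63 in the earlier ones. Although skin was trimmed off the pieces, only day 77 replicate 5 was below the lowest day 0 tumour (6.25), and the epidermal basal keratin gene Krt14 was at 11.15 or above in the other 7 tumours and at 6.23 in day 77 replicate 5. Of 24 tested members 21 had the lower mean in the later tumours (median difference -0.68), with 0 called. In 23 of the 24 day 77 replicate 5 was the lowest tumour, and in 20 day 77 replicate 4 was the highest. Loricrin, Lor, of the cornified envelope, had 8.10, 10.13 and 7.34 in the later tumours, against 11.17, 10.29, 11.00, 11.85 and 7.82 in the earlier ones. The tumours with the lowest and the highest epidermal signal were thus both of day 77, and each group holds low tumours. The part of epidermal content in the group comparison was not tested beyond the fits with these lists as covariates, which called 0 genes.

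**Figure D3:**
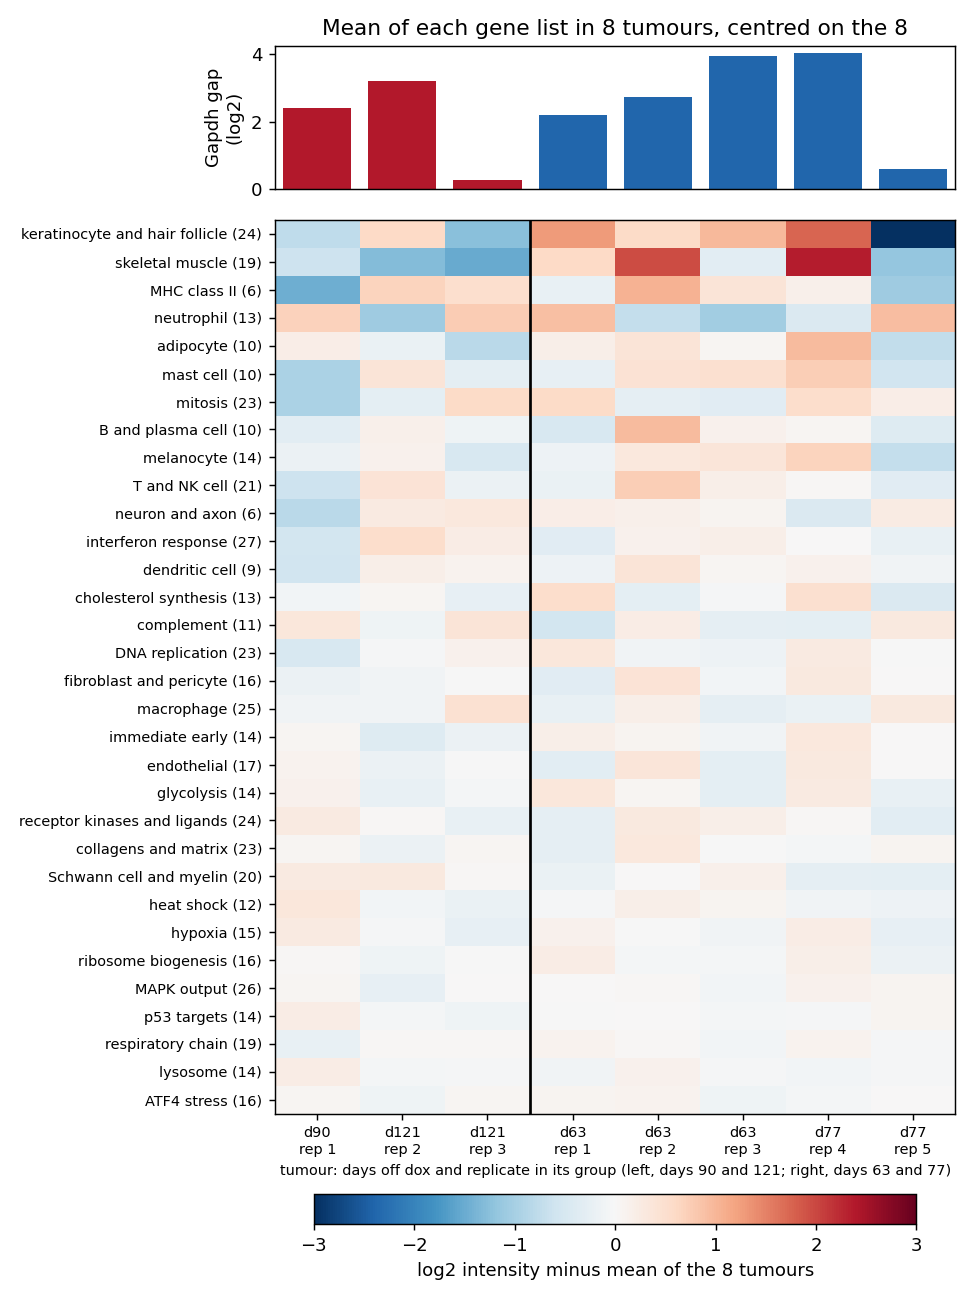
Lower panel, mean log2 intensity of each gene list (rows, number of tested genes in brackets) in the 8 tumours, minus the mean of the 8, with the list of widest range at the top; upper panel, the Gapdh 3′ minus 5′ gap of each tumour. The 3 columns left of the line are days 90 and 121, the 5 right of it days 63 and 77; the epidermal and muscle lists vary most, and the MAPK output list is nearly even.

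A principal component analysis gave the same picture. The first component held 50.5% of the variance, and its scores were -22.87, 16.57 and -41.2 in the later tumours, against 13.86, 14.05, 24.23, 48.38 and -53.02 in the earlier ones (two-sided exact permutation p = 0.393). Rptn, Hrnr, Krt1, Lce1f and Fam25c lead its high end. At its low end are inflammatory and macrophage genes, among them Hp (haptoglobin), C1qa, Chil3, Mmp12, Il6, Saa3 and Cxcl2, with the long noncoding RNA Malat1. The second component, with 16.5%, set the day 90 tumour (-44.41) apart from the other 7 (-4.44 to 18.23), and the third, with 12.3%, had day 63 replicate 1 at its low end (-32.3). Neither differed between the groups beyond the spread (exact permutation p = 0.339 and 0.857).

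The first component ran with the Gapdh gap. Because the gaps fall into separate clusters, the relation was computed within the 6 tumours with a gap over 2, where Pearson's r was 0.745 (exact permutation p = 0.0556) and Spearman's rho 0.943 (exact permutation p = 0.0167). Without the 2 tumours farthest from the median gap of those 6, r was 0.385 and rho 0.8 over 4 tumours, so the size of r rests on those 2. The relation was also computed over all 8 tumours and under other settings, and no other pair of measures was correlated in this way. The sign of the component was set so that higher scores go with a wider gap over the 8 tumours.

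Single genes followed the gap in large numbers when all 8 tumours were fitted. A limma slope on the gap called 1618 genes (11.8%), 892 (6.53%) higher and 726 (5.32%) lower where the gap was wider, and 4084 genes (29.9%) had an unadjusted p below 0.05. The count depended on which tumours were fitted. Within the 6 tumours with a gap over 2 the count was 0. Dropping day 121 replicate 3 left 191 calls and dropping replicate 2 of that day left 746, whereas dropping the day 90 tumour left 2494. Of the earlier tumours, day 77 replicate 5 took the count to 345 when dropped and replicate 4 to 348, and day 63 replicate 3 took it to 745 and replicate 2 to 1057. With the keratinocyte list mean in the fit, 2 genes were called, so gap and epidermal content cannot be told apart in these tumours.

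Ppp4c, the catalytic subunit gene of protein phosphatase 4, had the lowest p among genes lower with a wider gap. It had 8.53, 7.80 and 10.18 in the later tumours, against 8.57, 7.95, 7.24, 7.11 and 9.71 in the earlier ones, a slope of -0.79 ± 0.04 per unit of gap (SE, adjusted p = 0.000188 in limma over 8 tumours). Its order over the tumours is the reverse of that of the gap. Mbd3, of the NuRD complex, had a slope of -0.57 ± 0.04, the ubiquitin-conjugating enzyme gene Ube2s one of -0.69 ± 0.05, and Dapk3, Tspo and Pcdhb21 slopes from -0.57 to -0.39. The day 0 means of Ppp4c (10.25), Ube2s (10.94), Dapk3 (6.93) and Tspo (11.48) were above the highest of the 8 tumours, and those of Mbd3 (8.44) and Pcdhb21 (7.04) were below it. Of the genes higher with a wider gap, the leading 6 were Heph (ferroxidase hephaestin, slope 0.48 ± 0.05), Irx2, Fzd7 (a Wnt receptor gene), Nfib, Afdn (the junction protein afadin) and Kank1, with slopes from 0.29 to 0.58.

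Cell type lists differed in how many members followed the gap. Of 24 keratinocyte genes 9 were called higher with a wider gap, among them Krt15 (slope 1.08 ± 0.15, SE, adjusted p = 0.0068), Ivl, Dsc3, Epcam and Trp63, beside 6.53% of all genes. Of 14 melanocyte genes 6 were called higher, namely Tyrp1 (slope 0.74 ± 0.11, adjusted p = 0.00802), Mlana, Dct, Rab38, Kit and Mitf. Mast cell genes (3 of 10), adipocyte genes (3 of 10) and Schwann cell and myelin genes (3 of 20) were called higher too. Kit is also a member of the mast cell list. Of 13 neutrophil genes 5 and of 25 macrophage genes 4 were called lower with a wider gap, beside 5.32% of all genes, and in the macrophage list these were C1qa (slope -1.12 ± 0.11, adjusted p = 0.0029), Itgam, Cd14 and Msr1. C1qa had 9.13, 7.45 and 11.02 in the later tumours, against 7.81, 7.95, 6.94, 6.49 and 10.35 in the earlier ones, whereas its partner subunit gene C1qb, given above, had a slope of -0.28 ± 0.11 (adjusted p = 0.121). Of 19 skeletal muscle genes 0 were called with the gap. The neutrophil list mean was 9.13, 7.36 and 9.19 in the later tumours, against 9.33, 7.71, 7.39, 7.99 and 9.37 in the earlier ones, and the 4 tumours above 9 were those with the 4 smallest gaps.

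**Figure D4:**
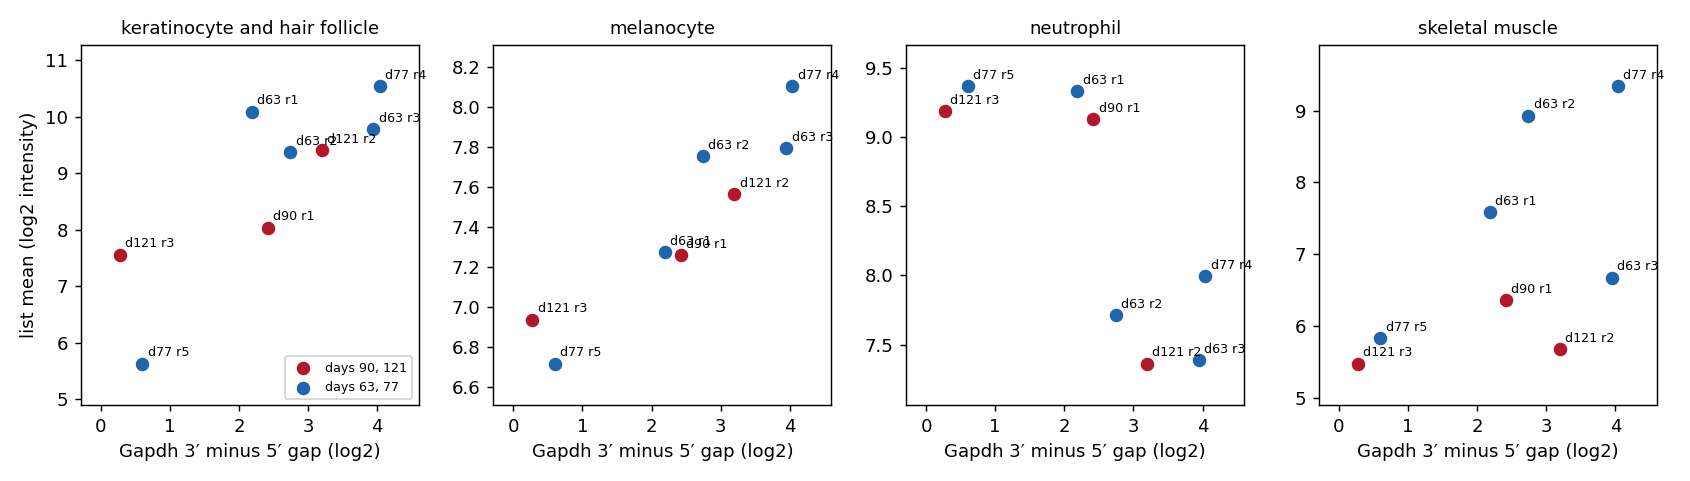
Mean log2 intensity of 4 gene lists (vertical axes) against the Gapdh 3′ minus 5′ gap (log2, horizontal axes) in the 8 tumours, labelled by day and replicate; red, days 90 and 121; blue, days 63 and 77. Keratinocyte and melanocyte means are higher and neutrophil means lower in tumours with a wide gap, and each colour spans most of the horizontal range.

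Some tumours carried genes at least 4-fold above or below all 7 others. The day 90 tumour was the highest in 5 genes: Ltf and Ngp, granule genes of maturing neutrophils (9.21 and 9.60, where the others lay at 5.76 to 5.99 and 5.37 to 6.44), the plasma apolipoprotein gene Apoh, Ctla2a, and Cd163, the haemoglobin scavenger receptor gene of macrophages, at 10.47. It was lowest in Clec7a, the receptor gene for fungal beta-glucan, at 6.85. Day 121 replicate 3 was highest in Samd5, Malat1 (13.04) and Zbed6. Day 63 replicate 2 was highest in the plasma cell genes Igha (13.80), Jchain (13.02) and Igkv8-30 and in the keratin gene Krt77. Day 77 replicate 5 was highest in Mmp12, the macrophage elastase gene, at 12.90, and lowest in 35 genes, led by the epidermal genes Krt14, Perp, Dsp and Krt6a. No gene met the limit in the other 4 tumours.

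Sex-linked transcripts differed within the earlier group. Xist, the RNA that coats the inactive X chromosome of females, had 6.70, 6.72 and 5.95 in the later tumours, against 6.26, 7.87, 6.67, 12.50 and 12.61 in the earlier ones. The Y-linked gene Eif2s3y had 9.92, 9.94 and 9.50 in the later tumours, against 9.94, 9.59, 10.17, 5.25 and 6.26 in the earlier ones, so both day 77 tumours were opposite to the other 6 in both genes. Sex is not given in the labels, and between days 63 and 77 it cannot be told apart from the day. Without both day 77 tumours, 0 genes were called.

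A single probe set was called when every probe set was tested rather than 1 per gene. It names Tia1, an RNA-binding protein gene of stress granules, and is not the brightest of that gene's 6 probe sets. It had 7.87, 7.59 and 7.03 in the later tumours, against 4.89, 4.87, 4.86, 5.02 and 5.05 in the earlier ones, a difference of 2.56 ± 0.18 (SE, adjusted p = 0.00862 in limma over 23781 probe sets). The groups lie far apart and neither has an intermediate value. Its values in the earlier tumours lay below the brightness limit. It therefore entered the test only through the later tumours, where it was high, so its p-value is not support for a difference. The brightest Tia1 probe set had 9.30, 9.44 and 9.69 against 9.37, 9.04, 9.27, 8.85 and 9.59, which overlap, and the other probe sets of the gene that were tested differed by -0.21 to -0.11. Over all 41 arrays the called probe set took 13 values of 6.60 or more and 28 of 5.55 or less, and these high and low values occur together within day 0 (5.03, 6.97, 7.75 and 5.16). The tumours of days 136 and 163 had 7.29 and 7.46. The probe set was singled out after its values were seen, and the cause of its high and low states was not tested.

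**Figure D5:**
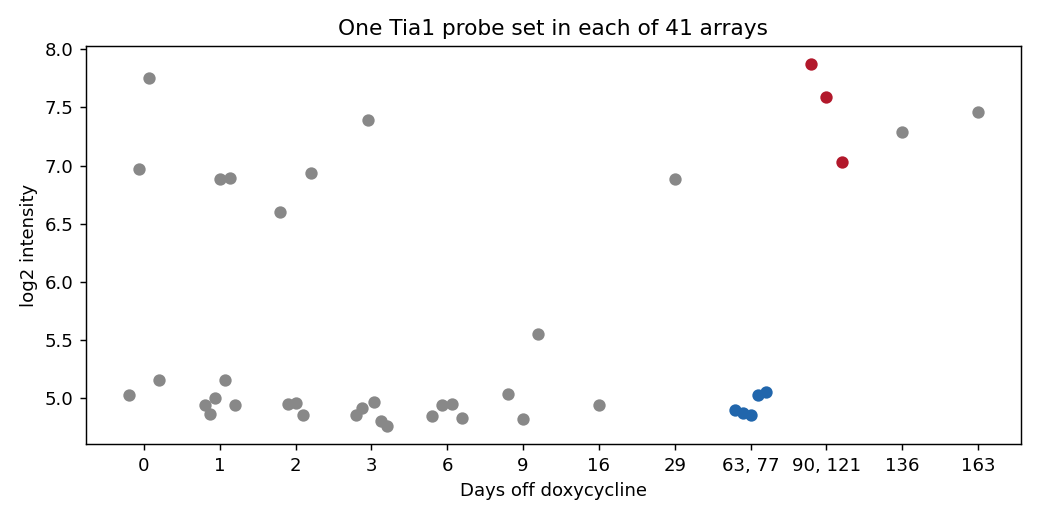
Log2 intensity of the called Tia1 probe set (vertical axis) in each of the 41 arrays by days off doxycycline; red, days 90 and 121; blue, days 63 and 77; grey, other days. All red points lie at 7.03 or above and all blue points at 5.05 or below, and both levels occur among the tumours of days 0 to 3.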

How the data were processed

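RNA of 8 of the 41 iBIP melanomas was compared, grouped by the labels' days off doxycycline. The deposited table holds 1 intensity per probe set and array on a linear scale. RMA and MAS5 are both named in the submitters' processing notes, without versions and without saying which made the table, and the genome build is not given in the sources used here. The deposited intensity was turned into log2(intensity + 16) and quantile normalised over all 41 arrays. Of 45101 probe sets 34958 named 1 gene, 932 several and 9211 none. Only the first kind was used, and of these 34754 matched a RefSeq gene, with 0 symbols updated. Per gene the probe set with the highest mean over the 41 arrays was kept. Genes above the 40th percentile of their array in at least 3 of the 8 arrays were tested with limma 3.58.1 in R 4.3.3 on these 8 arrays, at a Benjamini-Hochberg adjusted p under 0.05, with 6 residual and 2.42 prior degrees of freedom. The same fit was used for the slope on the Gapdh gap. Group means of single measures were compared by two-sided exact permutation tests. No 2 arrays held identical values.

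Genes named are the non-overlapping ones of 2-fold difference or more (none was called), members of the 33 lists with the lowest p, a fixed set (of which Cdkn2a, Cd8a and Adipoq did not pass the filter, and some genes are not reported here), the 15 of largest SD and 6 each way for the slope. Other genes named, such as those that lead a component, stand out in 1 tumour or follow the gap within a list, were chosen after their values were seen. The members and lists were chosen with earlier results of these data known. The pipeline was tested on simulated data. Alternatives covered scaling, pseudocount, filter, probe set choice, limma options, covariates, other sets of tumours and leaving out each tumour. Plots used Python 3.11.15 and its matplotlib 3.10.9.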

Additional observations from a re-analysis of the deposited data

Results flagged for a closer look

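Among 103 results examined within the 5 earlier tumours, 8 had a single tumour far from the other 4. Chance alone flags about 1 in 20 groups, a rate that does not apply to Krt1, Fam25c, 2610528A11Rik and Perp, which were chosen for their large SD, and the epidermal results are not independent of each other. In 7 of them the tumour was day 77 replicate 5, which has the narrowest Gapdh gap of the earlier group (0.60). Its keratinocyte and hair follicle list mean was 5.63, where the others ran from 9.38 to 10.54. Among single genes it had 6.23 for Krt14 (others 12.72 to 13.31), 5.45 for Krt1 (12.11 to 13.29), 6.31 for Fam25c (11.69 to 13.43), 4.93 for 2610528A11Rik (10.85 to 12.05) and 5.40 for Perp (11.80 to 12.66). For Hmga2 it was the highest, at 8.46, where the others ran from 6.95 to 7.28. The remaining result was the neuron and axon list mean of day 77 replicate 4, at 6.61, where the others ran from 7.12 to 7.30. What sets day 77 replicate 5 apart was not tested.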

How the results depend on the processing

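No paired analysis was possible because the labels give no replicate numbers, and those used here are in deposit order. The count of 0 called genes held under each alternative run with 2 exceptions. With all 41 arrays in the fit 1 gene was called, Sfrp5 (difference 1.07, adjusted p = 0.0414), with 829 genes (6.07%) at an unadjusted p below 0.05. With every probe set tested 1 was called, that of Tia1, which passed the filter only through the later tumours. Leaving out each tumour in turn gave 0 to 0 called, with 228 to 1021 genes at an unadjusted p below 0.05. Of the 17 gene differences followed under the alternatives (the 12 without overlap, Mal, Mbp, Apoe, Acta1 and Egfr), those that changed sign were Egfr (0.0061 as a mean of its probe sets) and, with the skeletal muscle list mean as a covariate, Ldb3 (0.0795) and Acta1 (0.29). With the gap as a covariate other named genes, none called between the groups, changed sign too, among them Mitf (0.06), Etv4 (-0.03), Cxcl9 (0.29), Pdgfrb (0.04), Krt1 (0.11) and Perp (0.82). The Gapdh gap difference ran from -1.36 to 0.10 when each tumour was left out, turning to 0.10 without day 121 replicate 3, and was -0.16 with days 136 and 163 added. The relation of the first component with the gap, r = 0.745, was 0.703 when day 121 replicate 3 was left out of the component and 0.718 when day 77 replicate 5 was. The same 6 tumours were correlated each time, so these values cannot show how r depends on any of the 6. The number of genes called with the gap, 1618, ran from 191 to 2494 when each tumour was left out. It was 0 within the 6 tumours with a gap over 2, 2 with the keratinocyte list mean as a covariate, 661 with the beta-actin gap, 850 with days 136 and 163 added and 916 with the group as a second term. The cause of these changes was not tested, and the sets left with 6 or 7 tumours also differ in their number of tumours. The fits within 6 tumours, without the 2 tumours of high Xist, with list means as covariates or the group as a second term, and without normalization were added once values were known, after seeing the data.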

Other observations

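Receptor kinase genes, which the comparison above left out, differed little. Over 24 tested receptor kinase and ligand genes the median difference was 0.02 and 0 were called. Axl, a receptor kinase gene of dedifferentiated melanoma, had 10.24, 10.37 and 9.99 in the later tumours, against 9.86, 10.68, 10.11, 9.91 and 9.77 in the earlier ones. Egfr had 8.49, 8.69 and 8.47 against 8.65, 9.21, 9.30, 9.28 and 8.68 (difference -0.47 ± 0.19 SE), with the later values near the lower end of the earlier range, and 0.0061 as a mean of its probe sets. Met differed by 0.20 ± 0.27 and Pdgfrb by -0.02 ± 0.23. The lists of collagens and matrix (median -0.01 over 23 genes), p53 targets (0.06 over 14), glycolysis (-0.11 over 14), hypoxia (0.05 over 15), cholesterol synthesis (-0.06 over 13), heat shock (-0.05 over 12), ribosome biogenesis (-0.03 over 16), respiratory chain (-0.13 over 19), lysosome (0.08 over 14) and ATF4 stress (0.00 over 16) had 0 called, as had the immediate early (-0.13 over 14), endothelial (-0.06 over 17), fibroblast and pericyte (-0.24 over 16), dendritic cell (-0.07 over 9), neutrophil (-0.04 over 13) and adipocyte (-0.20 over 10) lists. The erythrocyte list had 1 tested gene. The tumours of days 136 and 163 have titles in another number range and Gapdh gaps of 2.41 and 4.41, and their keratinocyte list means were 8.74 and 6.93.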
